A study of Mus musculus with 13 samples.

Results

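Ccdc80, Slc24a3, Slc2a6, Igfbp5, Tnip3, Lipg and Asap1 are 7 of the 25746 genes in a count table of mouse interfollicular keratinocytes. They are among the genes with the smallest unadjusted p in either of the following contrasts. One is the difference between K14Cre/+ Il12rb2fl/fl and Il12rb2fl/fl keratinocytes after Aldara, the other the interaction of genotype and Aldara. Other genes with a p as small, Hspb1 among them, are not included. None of the 7 passed adjustment over all genes in edgeR's quasi-likelihood test. With DESeq2, run as an alternative, Ccdc80 (adjusted p = 4.92e-05), Slc24a3 (0.0159), Slc2a6 and Igfbp5 (0.0239 each) passed for the genotype difference after Aldara, and Ccdc80 (0.000754) for the interaction. The interaction is the Aldara effect in K14Cre/+ Il12rb2fl/fl cells minus the Aldara effect in Il12rb2fl/fl cells. Limma voom, another alternative, called 0 genes in either contrast. These contrasts chose the genes, so the genes' values in them, by any of these tools, are given as a description, with no test.

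RNA came from FACS-sorted interfollicular keratinocytes, the epidermal cells that lie between hair follicles, taken from the skin of C57/BL6 mice, and was sequenced in bulk by the Smart-seq2 method. There were 3 libraries of K14Cre/+ Il12rb2fl/fl cells after 1 day of topical Aldara, a cream with 5% imiquimod (K14Cre Aldara), and 3 libraries of Il12rb2fl/fl cells after the same treatment (floxed Aldara). A further 4 libraries came from untreated K14Cre/+ Il12rb2fl/fl cells (K14Cre untreated) and 3 from untreated Il12rb2fl/fl cells (floxed untreated). All 4 groups carried the floxed Il12rb2 alleles, and the K14 promoter drives Cre in keratinocytes. Neither a vehicle cream group nor Cre mice lacking floxed alleles were analysed here. Replicates are numbered, but no label says that they came from separate animals, so the p-values measure the spread between these libraries, which may be technical.

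Il12rb2 encodes the chain of the interleukin-12 receptor that recruits the STAT signalling machinery, and the series concerns interleukin-12, keratinocytes and type 3 immunity in inflamed skin. Imiquimod activates Toll-like receptor 7 and is used on mouse skin to produce inflammation that resembles psoriasis. The genes have separate roles. Ccdc80 and Igfbp5 encode secreted proteins of the extracellular matrix and of insulin-like growth factor binding, Slc24a3 and Slc2a6 encode membrane transporters, Lipg encodes a secreted lipase, and Tnip3 and Asap1 encode intracellular regulators.

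Total counts ranged from 5830034 to 22232478 per library. Krt14, a basal keratin that marks the labelled cell type, was abundant in every library, from 7336 to 12521 CPM (counts scaled to a common library size with TMM factors) in K14Cre Aldara, 6413 to 12630 in floxed Aldara, 20493 to 32586 in K14Cre untreated and 11507 to 21442 in floxed untreated libraries. In 3 untreated libraries (K14Cre replicates 1 and 2, floxed replicate 2) a single predicted gene, Gm10800, took 5.21% to 14.2% of the counts, against at most 2.22% in any other library. Il12rb2 itself had 0, 1.07 and 1.64 CPM in K14Cre Aldara and 1.98, 8.12 and 2.67 CPM in floxed Aldara libraries. Without treatment it had 22.7, 8.50, 25.5 and 19.0 CPM in K14Cre and 17.1, 78.7 and 52.6 CPM in floxed libraries, which overlapped. Which exons are floxed is not given in the labels, and 1519 exonic bases of Il12rb2 overlap Serbp1 on the opposite strand, so its count is no clean measure of the deletion.

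Of the 7 genes, 7 passed the filter on low counts. Their mean levels lay between the 40.7th and 72.6th percentile of the 16051 genes tested. Ordered by p among genes with a mean log2 CPM of at least 3 and no predicted name, Ccdc80, Slc24a3, Slc2a6 and Igfbp5 were among the first 5 for the genotype difference after Aldara, and Ccdc80, Slc2a6, Tnip3, Asap1 and Lipg were the first 5 for the interaction. The remaining gene of the first list was Hspb1, a small heat shock protein gene, which was higher in K14Cre Aldara libraries (log2 fold change 1.06) and is not one of the 7. At the edge, Igfbp5 had an unadjusted p of 0.00125 in edgeR's quasi-likelihood test and the next gene, Arnt, 0.00137 with a log2 fold change of 0.88. For the interaction Lipg had an unadjusted p of 0.00166 and the next gene, Plet1, 0.00183 with a log2 difference of -1.69.

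After Aldara, all 7 genes were lower in K14Cre than in floxed keratinocytes on the fitted scale, by log2 differences of -1.02 to -5.92. Among all genes tested, 0 of 16051 (0%) were called in this contrast at an adjusted p under 0.05 by edgeR's quasi-likelihood test, and 690 had an unadjusted p under 0.05. The lowest adjusted p of the 7 was 0.487, for Ccdc80, and that of the other members was 0.982. In 6 of the 7 every K14Cre Aldara library lay below every floxed Aldara library, the exception being Asap1, while 4.72% of all tested genes had this order. The rule used that contrast, so nothing is read from the count. For the interaction 0 of 16051 genes (0%) were called and 539 had an unadjusted p under 0.05. In bulk libraries, fewer cells of a type and less RNA per cell cannot be told apart.

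**Figure D1:**
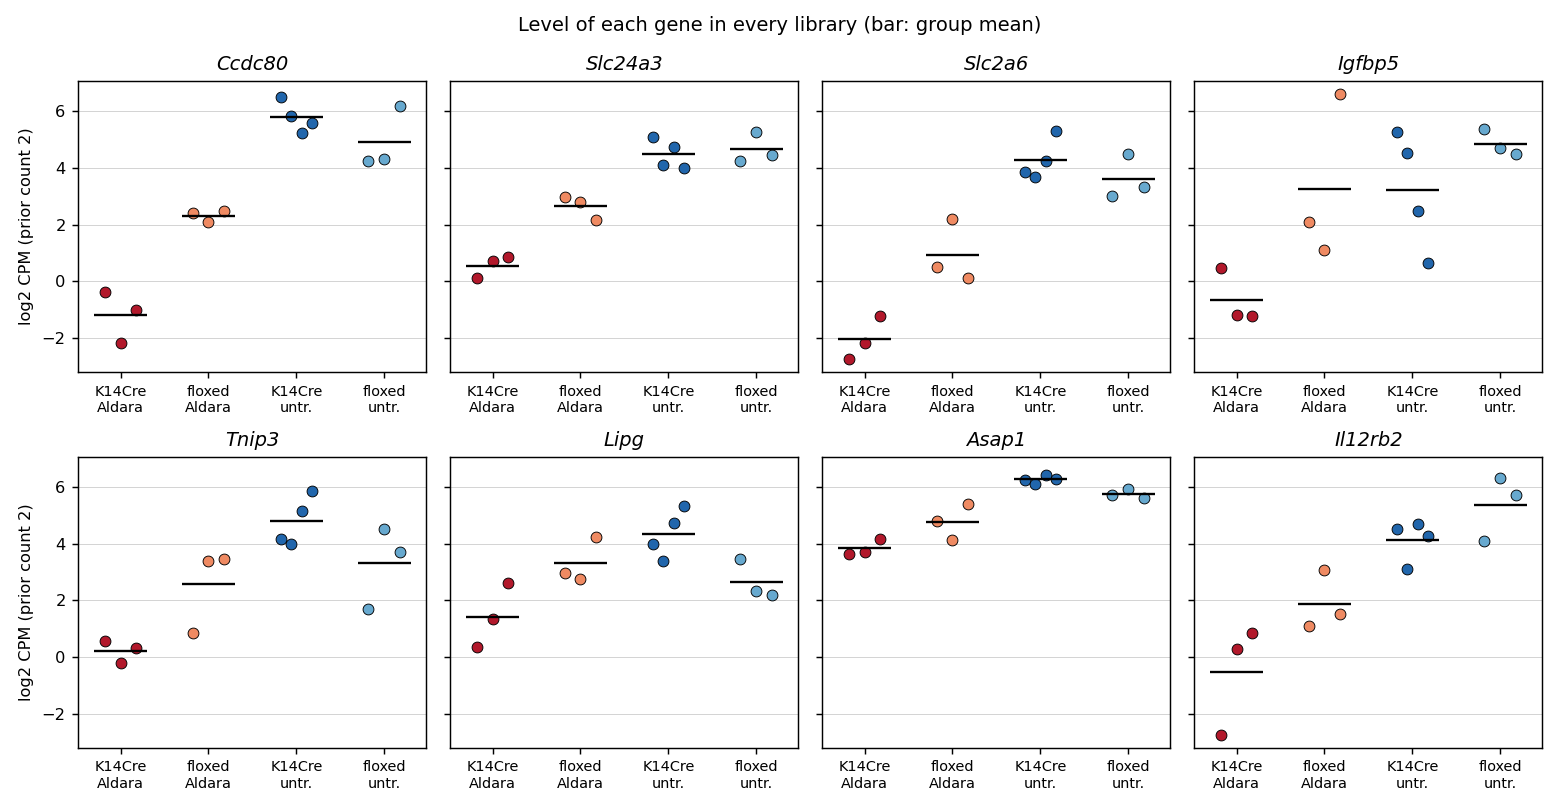
Level of each of the 7 genes and of Il12rb2 as log2 CPM (prior count 2) in each of 13 libraries, 1 point per library, with a bar at the group mean. The K14Cre Aldara libraries lie below the floxed Aldara libraries for every gene shown except Asap1, and 1 floxed Aldara library of Igfbp5, at 96.7 CPM, stands far above the other 2.

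Ccdc80 (chromosome 16, bases 45093402 to 45128077, + strand, GRCm38) encodes a secreted protein that associates with the extracellular matrix. It had 0.613, 0.0713 and 0.342 CPM in K14Cre Aldara libraries, from 6, 1 and 5 reads, against 5.10, 4.06 and 5.44 CPM in floxed Aldara libraries. Without treatment it had 90.9, 56.2, 37.0 and 47.7 CPM in K14Cre and 18.7, 19.6 and 71.8 CPM in floxed libraries. The untreated genotypes overlapped, the floxed Aldara libraries lay below both, and the K14Cre Aldara libraries lay lowest. The log2 difference between K14Cre and floxed cells was -3.89 (SE 0.69) after Aldara and 0.65 (SE 0.49) without treatment, which makes the interaction -4.54 (SE 0.85). Averaged over both genotypes, the log2 level of Ccdc80 fell by 5.18 after Aldara (SE 0.46, adjusted p = 1.24e-05, edgeR quasi-likelihood test). The low K14Cre Aldara counts that helped to choose Ccdc80 also lower this average, so it is no independent test.

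Igfbp5 (chromosome 1, bases 72857932 to 72874884, - strand) encodes a secreted protein that binds insulin-like growth factors. It had 1.23, 0.285 and 0.273 CPM in K14Cre Aldara libraries, against 4.08, 1.97 and 96.7 CPM in floxed Aldara libraries. Untreated libraries had 38.5, 23.1, 5.36 and 1.41 CPM in K14Cre and 41.3, 25.9 and 22.5 CPM in floxed cells. Floxed Aldara replicate 3 held the highest level of all 13 libraries, and the other floxed Aldara libraries lay below all floxed untreated libraries. The log2 difference between the genotypes after Aldara was -5.92 (SE 1.50) with all libraries and -2.42 without floxed Aldara replicate 3. The interaction was -5.11 (SE 1.79), and -1.61 without that library. Igfbp5 was chosen by the contrast within Aldara alone, so its untreated genotype difference was not used in the choice. The spread estimate and the mean level of the rule did take in the untreated libraries. The untreated difference was -0.81 (SE 1.07, adjusted p = 0.999972, edgeR) and did not pass. It was -1.62 without K14Cre untreated replicate 1, and -0.42, -0.51 and -0.50 without K14Cre untreated replicate 4, K14Cre untreated replicate 3 and floxed untreated replicate 1.

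The Igfbp5 pattern was shared by a few other genes. Among tested genes with no predicted name, the nearest by the root mean square difference of centred log2 CPM over the 13 libraries was Tbx3. This T-box transcription factor gene lay at 1.12, against a median of 2.60 over those genes. Tbx3 had 0.102, 0.0713 and 0.137 CPM in K14Cre Aldara and 0.255, 0.812 and 20.0 CPM in floxed Aldara libraries, so the same library stood apart. Egflam, an extracellular matrix gene, and Hey1, a Notch target gene, followed at 1.25 and 1.29 and were also highest in that floxed Aldara library among the Aldara libraries, at 10.5 and 6.76 CPM. Krt18, a simple-epithelium keratin that Merkel cells also make, had 8.58, 4.49 and 1.37 CPM in K14Cre Aldara and 6.44, 6.38 and 289 CPM in floxed Aldara libraries. The summed level of 14 melanocyte and Merkel cell markers was 410 CPM in floxed Aldara replicate 3, and ranged from 31.5 to 98.1 CPM over the K14Cre Aldara libraries and from 153 to 410 CPM over the floxed Aldara libraries. Krt18 made up 289 of the 410 CPM. The melanocyte gene Dct had 60.3, 45.0 and 21.6 CPM in floxed Aldara replicates 1 to 3. Of these libraries, replicate 3 was lowest for Dct, Pmel, Tyrp1, Mlana and Atoh1. It was highest for Krt18, Kit, Mitf, Piezo2, Sox10, Tyr and Krt20, and lay between the others for Isl1 and Sox2. At most 4 of these 14 genes were at 0 in any Aldara library, and the part these cells have in the Igfbp5 value was not tested.

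Slc24a3 (chromosome 2, bases 145167754 to 145642166, + strand) encodes a sodium and calcium exchanger that also carries potassium. It had 0.919, 1.50 and 1.64 CPM in K14Cre Aldara libraries, against 7.65, 6.85 and 4.28 CPM in floxed Aldara libraries. Untreated libraries had 34.2, 16.8, 26.2 and 15.7 CPM in K14Cre and 18.9, 38.6 and 21.5 CPM in floxed cells. The untreated genotypes overlapped throughout, and each Aldara group lay clear of the other 3 groups. The log2 difference between the genotypes was -2.19 (SE 0.47) after Aldara, and the interaction was -2.01 (SE 0.62). The untreated difference, which the choice of Slc24a3 did not use, was -0.18 (SE 0.41, adjusted p = 0.999972, edgeR) and did not pass. It lay between -0.43 (without K14Cre untreated replicate 1) and 0.20 (without floxed untreated replicate 2) as single libraries were left out. Averaged over the genotypes, Slc24a3 fell by 3.08 after Aldara (log2, SE 0.33, adjusted p = 3.44e-05, edgeR).

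Slc2a6 (chromosome 2, bases 27021363 to 27027998, - strand) encodes a facilitative glucose transporter of intracellular membranes. It had 0, 0.0713 and 0.273 CPM in K14Cre Aldara libraries, from 0, 1 and 4 reads, against 1.28, 4.41 and 0.923 CPM in floxed Aldara libraries. A count of 0 allows up to 0.306 CPM in that library, counting error only. Without treatment it had 14.5, 12.7, 18.6 and 39.4 CPM in K14Cre and 7.87, 22.5 and 9.77 CPM in floxed libraries, which overlapped. The log2 difference between the genotypes was -4.00 (SE 0.93) after Aldara and 0.68 (SE 0.67) without treatment, and the interaction was -4.68 (SE 1.15). With K14Cre Aldara counts this low the size of the difference is loosely set, and it ranged from -5.42 to -3.04 as single libraries were left out. Averaged over the genotypes Slc2a6 fell after Aldara by 4.97 (SE 0.62, adjusted p = 7.62e-05, edgeR). For Slc2a6 too, the low K14Cre Aldara counts behind its choice lower this average, which is no independent test.

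Lipg (chromosome 18, bases 74939322 to 74961263, - strand) encodes endothelial lipase, a secreted phospholipase of high-density lipoprotein. It had 1.12, 2.35 and 5.87 CPM in K14Cre Aldara libraries, against 7.72, 6.50 and 18.5 CPM in floxed Aldara libraries. Untreated libraries had 15.7, 10.3, 26.0 and 39.7 CPM in K14Cre and 10.7, 4.90 and 4.37 CPM in floxed cells. Lipg was the gene with the largest untreated difference of the 7, with log2 difference 1.78 (SE 0.65) in the direction opposite to that after Aldara, -1.80 (SE 0.68). Both enter the interaction of -3.58 (SE 0.94), which chose Lipg. Without floxed Aldara replicate 3 the difference after Aldara was -1.18. The floxed Aldara and floxed untreated libraries overlapped, and the averaged Aldara effect of -1.08 (SE 0.46, adjusted p = 0.104, edgeR) did not pass.

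Tnip3 (chromosome 6, bases 65525313 to 65634040, + strand) encodes a protein that, in human cells, was described as a partner of A20, the inhibitor of NF-kB signalling encoded by Tnfaip3. It had 1.33, 0.713 and 1.09 CPM in K14Cre Aldara libraries, against 1.66, 10.2 and 10.7 CPM in floxed Aldara libraries. Floxed Aldara replicate 1 lay close to the K14Cre Aldara libraries and the other floxed Aldara libraries well above them. Without treatment it had 17.9, 15.8, 35.6 and 58.0 CPM in K14Cre and 3.09, 22.8 and 12.7 CPM in floxed libraries, so floxed Aldara and floxed untreated libraries overlapped. The log2 difference between the genotypes was -2.85 (SE 0.81) after Aldara and 1.31 (SE 0.70) without treatment, and the interaction was -4.16 (SE 1.07). Averaged over the genotypes Tnip3 fell after Aldara by 2.85 (SE 0.55, adjusted p = 0.00148, edgeR).

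Asap1 (chromosome 15, bases 64086857 to 64382919, - strand) encodes a GTPase-activating protein for ARF GTPases, which act in membrane traffic and the actin cytoskeleton. It had 12.4, 12.8 and 17.8 CPM in K14Cre Aldara libraries, against 27.7, 17.2 and 41.8 CPM in floxed Aldara libraries. These groups overlapped, because floxed Aldara replicate 2 lay below K14Cre Aldara replicate 3. Untreated libraries had 76.4, 68.0, 85.6 and 78.4 CPM in K14Cre and 51.9, 60.9 and 48.4 CPM in floxed cells. Asap1 was the only gene of the 7 whose untreated genotypes did not overlap, with K14Cre above floxed, an order that 2.77% of all tested genes had, with 3.26% in the opposite order. The log2 difference was -1.02 (SE 0.29) after Aldara and 0.52 (SE 0.27) without treatment, and the interaction was -1.54 (SE 0.40). Without floxed Aldara replicate 3 the difference after Aldara was -0.65. Averaged over the genotypes Asap1 fell after Aldara by 1.66 (SE 0.21, adjusted p = 7.46e-05, edgeR), and it had the lowest dispersion of the 7 genes.

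**Figure D2:**
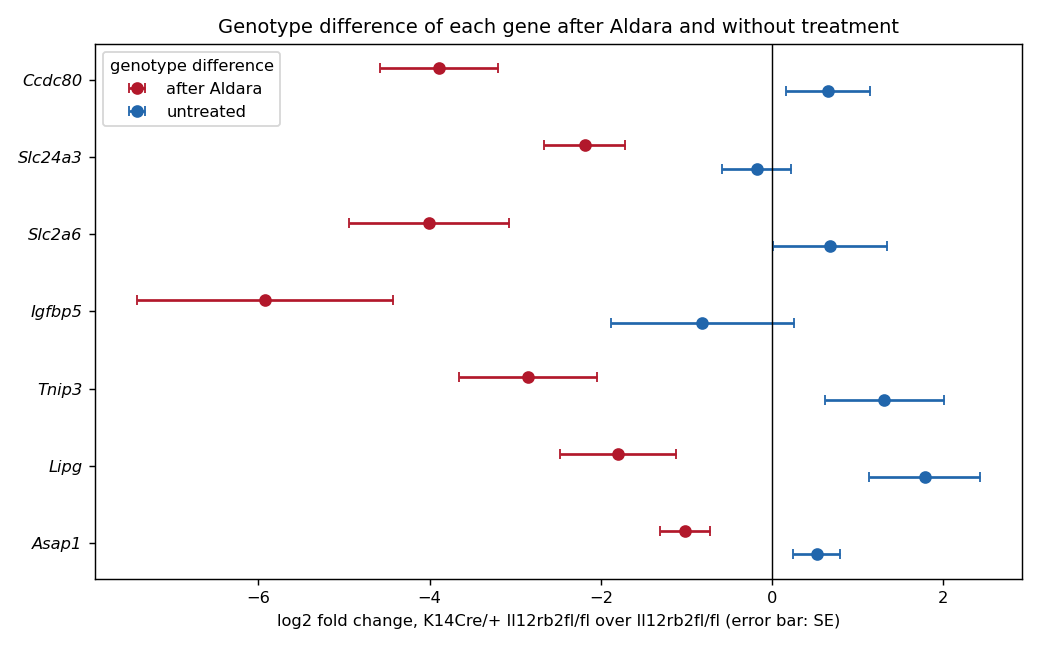
Log2 fold change of K14Cre/+ Il12rb2fl/fl over Il12rb2fl/fl keratinocytes for each gene, after Aldara (red) and without treatment (blue), with SE bars. The values after Aldara run from -1.02 (Asap1) to -5.92 (Igfbp5), and the untreated values from -0.81 (Igfbp5) to 1.78 (Lipg).

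Without treatment 5 of the 7 genes were higher and 2 (Slc24a3, Igfbp5) lower in K14Cre than in floxed cells, and none was called (adjusted p = 0.999972 for each, edgeR). The 5 higher genes are those that came first for the interaction, which subtracts this difference, so nothing is read from the count. Among all tested genes 54.7% were lower in K14Cre cells. Over all genes 0 of 16051 (0%) were called in that contrast and 599 had an unadjusted p under 0.05. The number in front of each sample description gives one more split of the libraries, though the labels do not say what it stands for. Untreated floxed libraries all had numbers up to 6 and untreated K14Cre libraries all had numbers from 15 up, so genotype and number cannot be told apart there. With a term for that number, the untreated log2 difference of Slc2a6 was -0.66, against 0.68 without the term, and that of Ccdc80 was 1.17, against 0.65. Single libraries also moved the untreated differences. Ccdc80 had 1.60 without floxed untreated replicate 3, 0.34 without replicate 1, 0.35 without replicate 2 and 0.35 without K14Cre untreated replicate 1. Slc2a6 had 1.27 without floxed untreated replicate 2, 0.41 without replicate 1 and 0.19 without K14Cre untreated replicate 4. Tnip3 had 2.003 without floxed untreated replicate 2 and 0.85 without either floxed untreated replicate 1 or K14Cre untreated replicate 4. Without the 3 libraries high in Gm10800 together, Ccdc80 had -0.05, Slc2a6 1.77, Igfbp5 -3.18 and Tnip3 2.60, none of them called in edgeR. Within Aldara, Tnip3 differed between K14Cre and floxed cells by -0.29 in log2 CPM between the libraries numbered 10 and 7 (1 each), and by -3.36 among those numbered 17 to 20 (2 each). For Igfbp5 the same differences were -1.62 and -5.06. The other 5 genes were lower in K14Cre cells by -0.82 or more in size within both sets of numbers.

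The Aldara effect averaged over both genotypes was tested. From the group sizes alone, its estimate has a correlation of 0 with the genotype difference after Aldara and of -0.06667 with the interaction. Those values assume the same spread in every group. Low K14Cre Aldara counts, which helped to choose some of the genes, vary more on the log scale and also lower the average. For such genes this contrast is no independent test. In this contrast 5 of the 7 genes were called, 5 lower and 0 higher, where 24.9% of all 16051 genes were called, 11.9% lower and 13% higher. The median log2 fold change of the 7 was -2.85, beside -0.15 over all genes. The rule asked for a mean level, so a gene scarce in both Aldara groups had to be more abundant untreated, and the count is a description of these genes only. The 2 that did not pass were Igfbp5 (-2.35, SE 0.89, adjusted p = 0.0677, edgeR) and Lipg. Igfbp5 depended on single libraries: without floxed Aldara replicate 3 its log2 fold change was -4.09 with an adjusted p of 0.00189, and without K14Cre untreated replicate 4 the adjusted p was 0.0371 (edgeR). Lipg passed without floxed Aldara replicate 3 (adjusted p = 0.0478, edgeR) and without K14Cre Aldara replicate 3 (adjusted p = 0.0335, edgeR).

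**Figure D3:**
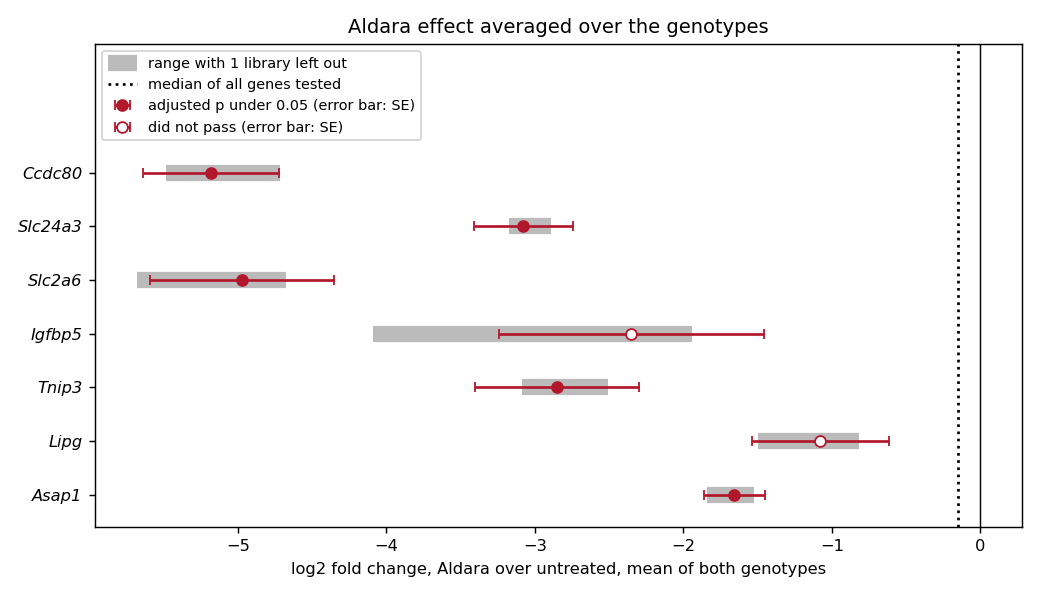
Log2 fold change of Aldara over untreated, averaged over both genotypes, for each of the 7 genes with its SE. Filled points passed an adjusted p of 0.05, grey bands give the range with 1 library left out, and the dotted line marks the median of all genes tested, -0.15. The values run from -5.18 (Ccdc80) to -1.08 (Lipg), and the widest band is that of Igfbp5.

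Within each genotype the Aldara effect enters the interaction that chose most of the genes, so these values are a description. The log2 fold changes of Aldara over untreated in K14Cre cells were -7.45 for Ccdc80, -7.31 for Slc2a6, -4.93 for Tnip3, -4.90 for Igfbp5, -4.08 for Slc24a3, -2.87 for Lipg and -2.43 for Asap1. In floxed cells they were -2.91 for Ccdc80, -2.63 for Slc2a6, -0.77 for Tnip3, 0.20 for Igfbp5, -2.07 for Slc24a3, 0.71 for Lipg and -0.89 for Asap1. In K14Cre cells 7 of the 7 and in floxed cells 3 of the 7 (Ccdc80, Slc24a3, Slc2a6) had an adjusted p under 0.05 in edgeR. Over all genes 15.5% had one in K14Cre cells (7.69% lower, 7.81% higher) and 7.05% in floxed cells (2.9% lower, 4.15% higher), and nothing is read from the comparison. The floxed count rested on single libraries and was 219 genes without floxed untreated replicate 2, against 1132 with all. Without that library the adjusted p was 0.0934 for Slc24a3 and 0.226 for Slc2a6, and without floxed untreated replicate 3 it was 0.0507 for Ccdc80 and 0.0908 for Slc2a6 (edgeR). The highest adjusted p over the alternatives was 0.142 for Slc24a3, 0.0746 for Ccdc80 and 0.270 for Slc2a6. In K14Cre cells Igfbp5 had no adjusted p under 0.05 without K14Cre untreated replicate 1 (0.0750), K14Cre Aldara replicate 1 (0.0550), replicate 2 (0.106) or replicate 3 (0.1002, each edgeR). Its log2 fold change there was -2.59 without the 3 untreated libraries high in Gm10800 (adjusted p = 0.249, edgeR), and its adjusted p was 0.380 with limma voom. In K14Cre cells all Aldara libraries lay below all untreated libraries for 7 of the 7 genes, while 14.8% of tested genes had that order. In floxed cells this held for Ccdc80, Slc24a3, Slc2a6 and Asap1, beside 14.7% of tested genes, and the same 4 genes had that order in both genotypes, beside 7.14%. The floxed Igfbp5 value turned to -3.28 without floxed Aldara replicate 3. The floxed Tnip3 value was -0.08 without floxed untreated replicate 2, -0.29 without floxed Aldara replicate 1 and -1.24 without floxed untreated replicate 1. The floxed Lipg value was 0.09 without floxed Aldara replicate 3, 0.47 without floxed untreated replicate 3, 1.24 without floxed untreated replicate 1 and -0.10 with the label-number term.

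Scaled by exonic length, the highest group mean among the 7 genes was that of Ccdc80 in K14Cre untreated libraries, 13.5 ± 5.43 CPM per kb (SD, n = 4), followed by Asap1 in the same group at 10.3 ± 0.965 CPM per kb (SD, n = 4), a gap within the spread of Ccdc80. In K14Cre Aldara libraries Asap1 had the highest level of the 7, 1.91 ± 0.407 CPM per kb (SD, n = 3), and Slc2a6 the lowest, 0.0358 ± 0.0441 CPM per kb (SD, n = 3). In floxed Aldara libraries Asap1 had 3.86 ± 1.65 CPM per kb and Igfbp5 5.70 ± 9.004 CPM per kb (SD, n = 3 each), the Igfbp5 value resting on replicate 3.

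Promoter windows were taken from RefSeq (GRCm38.p6) for 4 of the 7 genes, covering bases 250 to 26 before the annotated start, 225 bases each. These 4 are the genes for which a window was used. Slc24a3, Slc2a6 and Tnip3 fell after Aldara in the averaged effect and Igfbp5 did not pass, and Ccdc80 and Asap1, which also fell, and Lipg are not in the motif counts. Capitals mark letters that match GGGA, any 4 bases and CC, an NF-kB type motif, on either strand. The Slc24a3 window is chr2:145167525-145167749 (+ strand), that of Slc2a6 chr2:27028024-27028248 (- strand), that of Igfbp5 chr1:72874891-72875115 (- strand) and that of Tnip3 chr6:65590148-65590372 (+ strand). The Tnip3 window precedes an internal start annotated by RefSeq and lies within the gene bounds given above, which are those of GENCODE.
Slc24a3: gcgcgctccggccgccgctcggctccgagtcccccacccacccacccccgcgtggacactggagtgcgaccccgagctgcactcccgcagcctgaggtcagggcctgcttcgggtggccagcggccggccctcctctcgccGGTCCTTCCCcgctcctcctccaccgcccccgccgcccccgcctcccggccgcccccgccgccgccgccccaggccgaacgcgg
Slc2a6: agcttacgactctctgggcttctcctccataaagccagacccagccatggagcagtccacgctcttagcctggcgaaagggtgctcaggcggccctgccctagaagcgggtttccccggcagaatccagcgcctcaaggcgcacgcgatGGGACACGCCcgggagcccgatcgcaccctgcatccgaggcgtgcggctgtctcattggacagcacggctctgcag
Igfbp5: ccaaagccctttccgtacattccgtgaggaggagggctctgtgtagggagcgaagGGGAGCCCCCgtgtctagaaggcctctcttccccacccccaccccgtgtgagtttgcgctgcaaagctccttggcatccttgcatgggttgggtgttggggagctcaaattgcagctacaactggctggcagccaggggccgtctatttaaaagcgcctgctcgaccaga
Tnip3: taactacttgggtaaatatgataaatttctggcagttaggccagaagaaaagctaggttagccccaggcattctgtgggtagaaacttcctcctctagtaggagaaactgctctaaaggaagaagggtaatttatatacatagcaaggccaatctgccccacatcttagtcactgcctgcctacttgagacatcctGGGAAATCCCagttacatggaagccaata
The match begins 109 bases before the start in Slc24a3, 101 in Slc2a6, 195 in Igfbp5 and 54 in Tnip3. A window at another start of Slc24a3, not shown and counted separately, also holds it, so 5 of 5 windows match, beside 15.84% of 32851 promoter windows of the same length. Windows on the chromosome of Lipg were left out for the 7 genes but kept in that share. All windows were cut from longer ones. No reason is given for either choice, and Slc24a3 enters with both its windows, so nothing is read from the comparison. These 5 windows held no AP-1 letters (TGANTCA, in 6.243% of windows) and no STAT letters (TTCNNNGAA, in 6.383%). Base composition differed widely, from 43.56% G and C in Tnip3 to 80.89% in Slc24a3. A match of letters is a description of the sequence and says nothing of binding.

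Genes that work with the 7 were counted in the averaged Aldara effect, beside 11.9% lower and 13% higher over all genes. None of the genes of these lists was called for genotype after Aldara, for genotype untreated or for the interaction. Among the NF-kB feedback genes around A20, 7 of 20 tested fell and 0 rose. Tnip2, another A20 partner, fell by 1.89 (SE 0.28, adjusted p = 0.000264, edgeR), and Tnfaip3, which encodes A20, fell by 2.68. Birc3, an inhibitor of apoptosis, fell by 1.45 and Nfkbiz, a nuclear inhibitor of the NF-kB family, by 0.94. Tnip1, the remaining gene of the Tnip family, had a log2 fold change of -0.38 (adjusted p = 0.173, edgeR) and did not pass. Among insulin-like growth factor genes 3 of 20 tested rose and 5 fell. Igfbp3 fell by 3.93, Igfbp7 by 1.51 and Htra1, a protease that cleaves binding proteins, by 1.96, while Igfbp2 rose by 2.93 on the log2 scale.

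Of the glucose transporters 3 of 13 tested fell and 0 rose. Slc2a12 fell by 2.63 and Slc2a5, a fructose transporter, by 1.41, whereas Slc2a1, the main glucose transporter of many epithelia, had 0.16 (adjusted p = 0.682, edgeR). Slc5a10 fell by 0.76, a call lost under 11 of 21 alternatives. Of calcium exchangers and pumps, 1 of 13 tested rose (Atp2a2, the calcium pump of the endoplasmic reticulum, 1.46) and 2 fell. These were Atp2b4, a plasma membrane calcium pump, by 2.20, and Slc8b1, a mitochondrial exchanger, by 0.91, a call lost under 2 alternatives.

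Of lipases and their partners, Lipg not counted, 6 of 16 tested rose and 0 fell. Mgll, which cleaves monoacylglycerol, rose by 2.56, Angptl4, an inhibitor of lipoprotein lipase, by 2.09, and Lpl, the lipoprotein lipase itself, by 1.82. Abca1, a lipid exporter, rose by 0.96, a call lost under 9 alternatives. Of ARF GTPases and their regulators 1 of 36 tested rose and 7 fell. Arfgap3 fell by 2.17, Agfg2 by 1.29, Acap3 by 1.27 and Acap2 by 0.83, the call of Acap2 being lost under 2 alternatives. Asap2, the relative of Asap1, had 0.14 (adjusted p = 0.779, edgeR). Among sushi repeat and small matrix proteins, listed beside Ccdc80, 1 of 20 tested rose and 8 fell. Sparc fell by 1.73, Fn1 by 3.21 and Thbs2 by 2.14, while Fbln1 rose by 0.94.

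Markers of other cell types moved with some of these groups. Of 18 fibroblast markers, 11 fell and 0 rose in the averaged Aldara effect, with a median log2 fold change of -2.63. Their summed level ranged from 55.4 to 220 CPM in K14Cre Aldara, 121 to 405 in floxed Aldara, 951 to 2173 in K14Cre untreated and 953 to 1139 in floxed untreated libraries. Between the genotypes after Aldara their median log2 difference was -1.05 and none of the 18 was called. In K14Cre Aldara replicate 1, 6 of the 18 were at 0 (Col6a1, Col6a2, Pdgfrb, Mfap5, Loxl1 and Dpt), and in the other Aldara libraries at most 2. Pdgfrb was also at 0 in floxed Aldara replicate 3, and had 6.49 and 1.37 CPM in K14Cre Aldara replicates 2 and 3. Col5a1, at 11.4 CPM, was higher in K14Cre Aldara replicate 1 than in any other Aldara library. Fibroblasts express Ccdc80, Igfbp5 and Fn1, and the part of fibroblast RNA in their values was not tested.

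The summed level of 16 hair follicle markers was 1548 to 2739 CPM in K14Cre Aldara and 2710 to 3158 CPM in floxed Aldara libraries. Krt79 alone had 1081 to 2733.5 CPM in these libraries. Neutrophil markers, 12 genes, summed to 109 to 183 CPM in K14Cre Aldara and 18.8 to 40.7 CPM in floxed Aldara libraries, groups that did not overlap. S100a8 and S100a9, the most abundant of these, are also made by keratinocytes. Cxcr2, a chemokine receptor of neutrophils, had 9.30, 2.99 and 4.99 CPM in K14Cre Aldara and 0.191, 2.09 and 2.24 CPM in floxed Aldara libraries. These did not overlap either, with K14Cre above, an order that 4.37% of all tested genes had. Camp had 0, 0 and 0.137 CPM in K14Cre Aldara and 4.02, 0.348 and 0 CPM in floxed Aldara libraries. Mmp9 gave 36.5 of the 109 CPM in K14Cre Aldara replicate 2 and was at 0 in replicates 1 and 3. Ly6g, a neutrophil surface protein, was at most 0.116 CPM in any Aldara library. Endothelial and mural markers, 15 genes, summed to 66.2 to 161 CPM in K14Cre Aldara and 76.9 to 132 CPM in floxed Aldara libraries. T cell markers summed to 17.9 to 22.4 and 17.8 to 32.3 CPM in the same groups, and Langerhans cell and macrophage markers to 471 to 956 and 485 to 629 CPM. These ranges overlapped. Most of the Langerhans cell and macrophage sums came from Epcam and Cd74. Epcam had 403 to 467 CPM in K14Cre Aldara and 346 to 401 CPM in floxed Aldara libraries, and Cd74 52.9 to 455 and 67.3 to 224 CPM. Cd207, a Langerhans cell marker, was at 0 in every Aldara library except floxed Aldara replicate 2, at 0.116 CPM. The overlap of these sums is therefore no measure of these cells. Sebaceous gland markers rose for 11 of 14 tested and basal keratinocyte markers fell for 10 of 14, suprabasal markers fell for 7 of 14 and rose for 1. The part of these shifts in the values of the 7 genes was not tested.

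**Figure D4:**
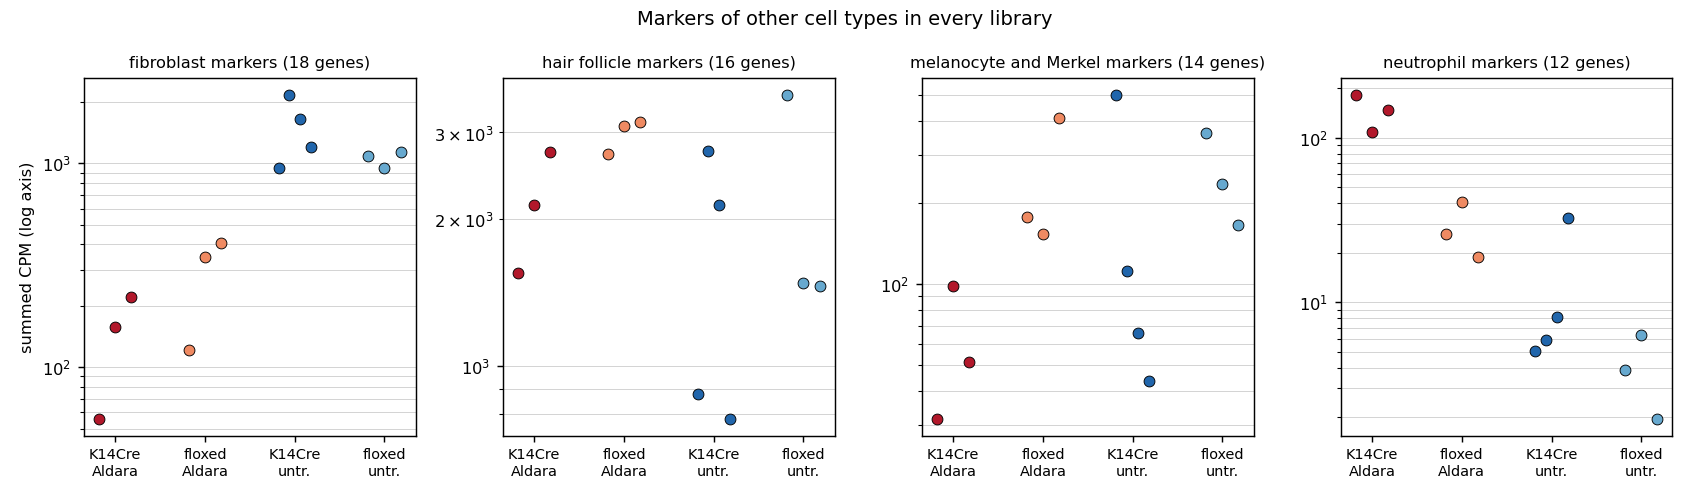
Summed CPM (log axis) of markers of 4 other cell types in each library, 1 point per library, by group. Fibroblast sums lie between 55.4 and 405 CPM in all Aldara libraries and at 951 CPM or higher in all untreated ones, and neutrophil sums are highest in K14Cre Aldara libraries.

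The 7 genes did not share a single pattern over the libraries. By the root mean square difference of centred log2 CPM, the closest pair was Lipg and Asap1 at 0.829, and the farthest Slc2a6 and Igfbp5 at 2.53. Genes with predicted names were left out of the search for the nearest genes and of the medians. The gene nearest to Ccdc80 was Slc2a6 at 1.10, beside a median of 2.86, followed by Pbx4, a homeobox gene, and Bend4. Nearest to Slc24a3 were Fn1, which encodes fibronectin, at 0.569, Maf, a transcription factor, and Mtmr11. Slc2a6 lay nearest to Arhgef28 at 0.900, then to Skint7, a gene of the keratinocyte Skint family, and Krt78, a keratin. Tnip3 lay nearest to Rgs9, a regulator of G-protein signalling, at 0.819, then to Ankdd1a and Pgm5. Lipg lay nearest to Abtb2 at 0.629, then to Cldn1, a tight junction gene, and Optc. Asap1 lay nearest to Pof1b at 0.283, then to Marveld2, a tricellular junction gene, and Plxdc2, beside a median of 1.24. This measure takes in the libraries that chose the 7 genes and is a description, with no test.

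**Figure D5:**
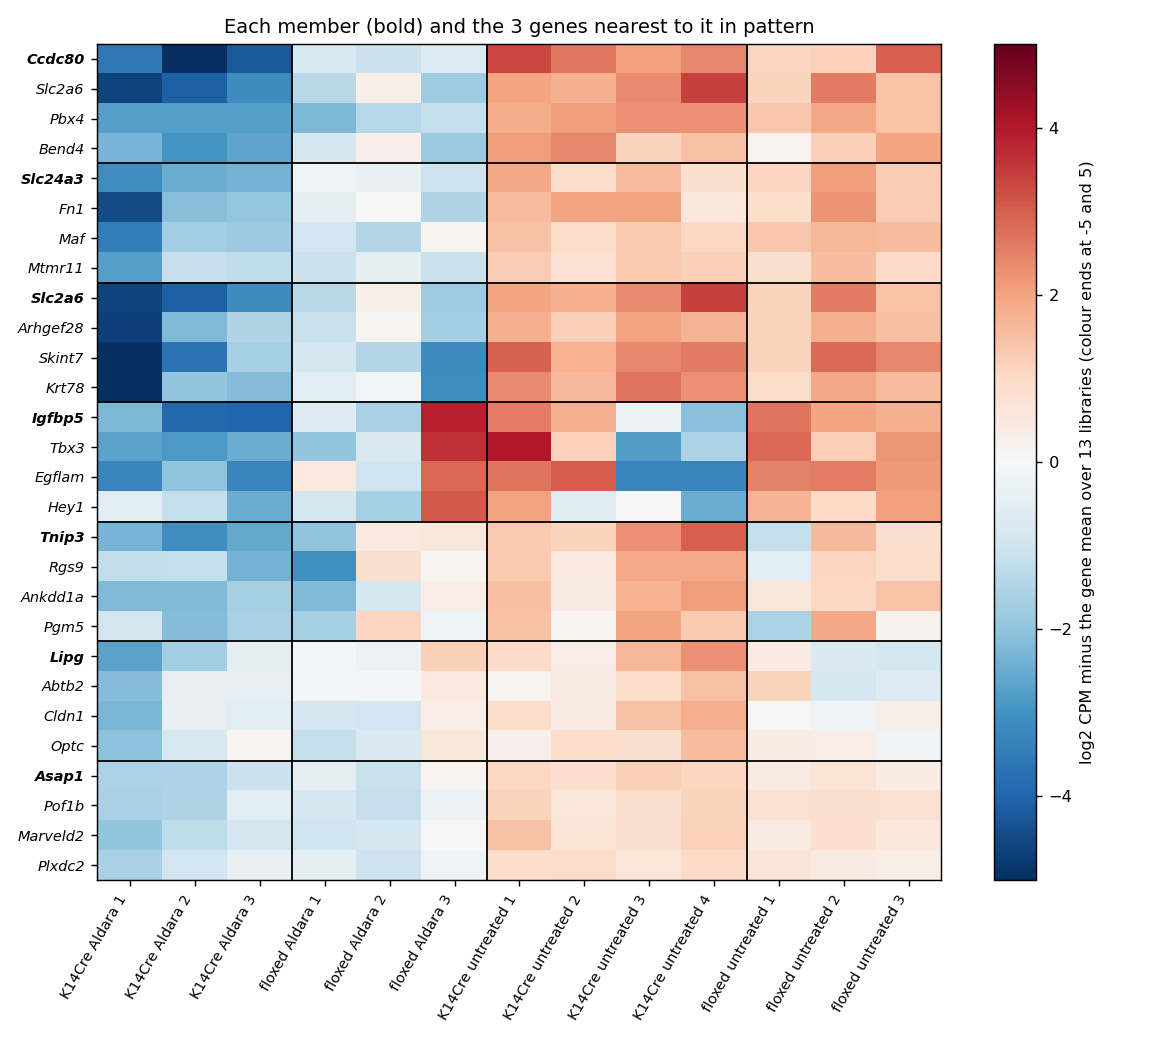
Log2 CPM minus each gene's mean over 13 libraries (red higher, blue lower) for the 7 genes, in bold, each followed by the 3 tested genes with no predicted name nearest to it. K14Cre Aldara libraries are mostly blue, and Igfbp5, Tbx3, Egflam and Hey1 share the high value in floxed Aldara replicate 3.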

How the data were processed

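The authors deposited unnormalized read counts for each gene, made with STAR, featureCounts of the Subread package and build GRCm38, per the submitters' processing notes. Their versions, the annotation release, strand setting and handling of multi-mapping reads were not given in the sources used here, and per the labels' protocols Smart-seq2 libraries were read single-end. The table held 25746 genes, of which 25635 were in GENCODE M21, used for positions and lengths. In R 4.3.3, edgeR 4.0.16 was run with filterByExpr (minimum count 10, 16051 genes), TMM factors and the quasi-likelihood F test, with 1 coefficient per group over 13 libraries (common dispersion 0.424). P-values were adjusted by Benjamini-Hochberg over all genes and called under 0.05. CPM values use TMM-scaled totals, and SEs are the log2 fold change over the square root of F. Alternatives were RLE factors, no filter, DESeq2 1.42.0, limma 3.58.1 (voom), a replicate block, a label-number term, smaller fits and libraries left out. The steps were tested on simulated counts. Genes named were the 7 members, the 3 nearest in pattern to each, the next genes by p in the contrasts that chose them and Il12rb2. Up to 4 called genes per pathway list and the most abundant genes of some marker lists were also named. Others, such as Hspb1, Krt18, Tnip1, Slc2a1, Asap2, Ly6g, Cxcr2, Camp, Mmp9 and Cd207, were picked after their values were seen. So were Col5a1, the markers at 0 and the melanocyte and Merkel cell markers other than Dct. The members and lists were chosen with earlier results of these data known. Intervals for a count of 0 use 3 counts.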

Additional observations from a re-analysis of the deposited data

How the results depend on the processing

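In the averaged Aldara effect, Ccdc80, Slc24a3, Slc2a6, Tnip3 and Asap1 kept their direction and their call under all 21 alternatives, and 5 to 7 of the 7 genes were called. Igfbp5 was also called with no filter (adjusted p = 0.0217, edgeR) and with DESeq2 (adjusted p = 0.0435), and Lipg with the label-number term (adjusted p = 0.0379, edgeR). Without the 3 untreated libraries high in Gm10800, the genes called were 2624 (main value 3994), 1458 in K14Cre (2489) and 266 in floxed cells (1132). With 1 library left out, the counts ranged from 3163 to 4089 averaged, from 1642 to 2844 in K14Cre (lowest without K14Cre untreated replicate 1) and from 219 to 1499 in floxed cells. In floxed cells the count was 219 without untreated replicate 2, 293 without untreated replicate 3, 436 without Aldara replicate 1 and 645 without Aldara replicate 2. DESeq2 called 2022 genes in floxed cells. For K14Cre against floxed after Aldara, DESeq2 called 23 genes (4 higher, 19 lower), no filter gave 1 and limma voom 0. Under DESeq2 the adjusted p was 4.92e-05 for Ccdc80, 0.0159 for Slc24a3, 0.0239 for Slc2a6 and Igfbp5, 0.0711 for Tnip3, 0.267 for Asap1 and 0.450 for Lipg. For the interaction DESeq2 called 2 genes, with Ccdc80 at an adjusted p of 0.000754 and the other 6 of the 7 at 0.0917 or higher, and limma voom 0. For K14Cre against floxed untreated, DESeq2 called 22, no filter 3 and limma voom 0. The cause of these differences was not tested. The smaller fits give no value for the interaction or for Aldara within a genotype. Low counts, down to 0 to 6 reads for Ccdc80 and Slc2a6 in K14Cre Aldara libraries, limit how closely their differences are known. With the replicate number as a block, 3581 genes and 5 of the 7 were called in the averaged effect, 83 list genes against 92, 1919 and 831 genes within K14Cre and floxed cells, and 0 in each genotype contrast. Whether the numbers pair the libraries was not settled. Over 18 same-number pairs the deviations correlated from -0.163 to 0.421 (median -0.0004), with 6 over 0.1. Other pairs from different groups ranged from -0.445 to 0.369 (median -0.0022). Of 13 libraries, 6 correlated best with their own number.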
